A study of Mus musculus with 38 samples.

Results

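The shared sites of skin SATB1 and skin CTCF are peaks of urea ChIP-seq that were called with both antibodies in skin and that did not lie on a base-unpairing region (BUR). A peak of SATB1 replicate 1 on chromosomes 1 to 19 and X was a shared site when it had at least 1 bp in common with a peak of SATB1 replicate 2 and with a skin CTCF peak, and none with the BUR reference map. Of 10982 peaks of replicate 1 on these chromosomes, 8873 were also in replicate 2, and 977 of those had a CTCF peak. A further 238 of these lay on a BUR and were left out, so that 739 peaks (6.73%) remained. The sites were thus chosen by measured values, namely the peak calls of these 4 lists. Counted on the peaks of replicate 2, the same rule gave 732 sites.

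All mice carried wild-type Satb1 and were of strain C57BL/6. The skin samples, labelled P13, were primary epidermal keratinocytes, and the SATB1 samples differed in sonication (55 s for replicate 1 and 60 s for replicate 2). The sample text also gives other ages for skin, and no label says that the replicates came from separate animals. SATB1 was precipitated from skin, thymocytes (labelled P13) and brain (labelled 5 weeks and 6 weeks) with the laboratory's own antibody 1583D, and CTCF from skin and thymocytes with an Active Motif antibody. In urea ChIP-seq, crosslinked chromatin is first stripped of proteins that are not crosslinked to DNA by centrifugation through urea. Standard ChIP-seq of SATB1, without the urea step, was in thymocytes labelled P13, with the Abcam antibody ab109122 and 15 s of sonication in replicate 1 and with 1583D and 150 s in replicate 2. The titles of standard replicate 1 and of the thymocyte CTCF sample give 6 weeks. For CTCF, 1 list in each tissue was analysed here, as was 1 list of the BUR map, and no spread is given for them. A peak list holds no measure of expression, so that the identity of the skin cells was not checked from markers.

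SATB1 is a nuclear protein that folds chromatin in thymocytes and in the basal layer of the epidermis. BURs are AT-rich stretches that come apart readily under superhelical strain and carry a strand with few G. CTCF is a zinc-finger protein that reads a long GC-rich motif and holds the bases of many chromatin loops. The rule therefore set apart skin SATB1 peaks with no in vitro SATB1 target under them and with CTCF signal at the same place.

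The sequences below are 200 bases of mm9 around the SATB1 summit, on the plus strand. Among sites with a CTCF motif core inside these 200 bases, the first pair had the highest mean SATB1 fold enrichment. The core is in capitals.
Intron of Hhat, chr1:194484268-194484467: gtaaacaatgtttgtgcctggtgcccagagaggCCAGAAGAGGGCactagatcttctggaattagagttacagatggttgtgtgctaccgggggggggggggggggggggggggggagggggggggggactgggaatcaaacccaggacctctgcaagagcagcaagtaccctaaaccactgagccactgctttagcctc
Site near Wasf3, chr5:147193857-147194056: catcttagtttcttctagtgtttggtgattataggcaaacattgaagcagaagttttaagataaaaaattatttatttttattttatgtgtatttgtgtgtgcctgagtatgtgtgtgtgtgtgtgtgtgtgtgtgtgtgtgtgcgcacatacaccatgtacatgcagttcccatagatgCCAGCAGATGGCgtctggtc

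The next pair led the shared sites that lack this core in the same window, by the same value, and the capitals mark runs of at least 8 C.
Intron of Cdrt4, chr11:62768110-62768309: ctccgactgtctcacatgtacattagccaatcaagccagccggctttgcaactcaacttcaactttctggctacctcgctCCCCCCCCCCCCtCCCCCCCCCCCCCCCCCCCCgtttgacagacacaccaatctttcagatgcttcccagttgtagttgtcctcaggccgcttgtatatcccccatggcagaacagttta
Intron of Atp13a4, chr16:29504645-29504844: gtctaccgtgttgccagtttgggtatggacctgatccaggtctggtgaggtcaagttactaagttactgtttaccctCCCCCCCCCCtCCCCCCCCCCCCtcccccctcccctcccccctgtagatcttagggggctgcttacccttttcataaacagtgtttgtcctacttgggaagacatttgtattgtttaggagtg

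For comparison, the skin SATB1 peak on a BUR with the highest mean fold enrichment follows, with its longest stretch free of C in capitals. It had an AT content of 66.5% in these bases, and the site in Cdrt4 43.5%.
BUR peak, chrX:139917506-139917705: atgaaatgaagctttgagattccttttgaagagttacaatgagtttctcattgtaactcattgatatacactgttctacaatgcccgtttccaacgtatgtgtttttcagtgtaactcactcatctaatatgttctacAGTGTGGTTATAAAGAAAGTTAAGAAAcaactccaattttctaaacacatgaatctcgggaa

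Tandem repeats were frequent among the shared sites, as described further on. The next site holds the pentamer GGAAT, with repeats of 2 or more whole units in capitals. It was chosen after the values were seen.
GGAAT repeat, chr6:10136318-10136517: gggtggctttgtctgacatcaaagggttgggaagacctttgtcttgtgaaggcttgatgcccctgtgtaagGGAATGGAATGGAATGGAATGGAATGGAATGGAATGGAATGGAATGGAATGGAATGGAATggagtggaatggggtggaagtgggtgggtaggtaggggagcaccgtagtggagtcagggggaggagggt

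The fold enrichment at a summit is the peak caller's ratio of signal to background nearby, within one library. Over the 739 sites, it ranged from 1.68 to 41.8 in SATB1 replicate 1, with a median of 9.85, and from 1.62 to 41.5 in replicate 2, with a median of 8.80. In the CTCF list it ranged from 1.62 to 45.0, with a median of 13.8. The median over the whole list was 7.96, 7.78 and 5.68 in the same order. Of the CTCF peaks at shared sites, 69.6% were in the top 10% of the CTCF list by fold enrichment, against 15.7% and 13.6% of the SATB1 peaks in their own lists. Shared sites were thus mostly strong CTCF peaks of skin, while their SATB1 values were spread over the range of the SATB1 lists. These lists chose the sites, so the values are a description.

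The sites with the highest mean SATB1 fold enrichment were led by chr11:62768183-62768422 in an intron of Cdrt4, with 41.8 and 41.5 in the SATB1 replicates (SD 0.18, n = 2) and 45.0 in CTCF. This was also the site with the highest CTCF fold enrichment. It had no peak in any urea list of thymocytes or brain, and a fold enrichment of 57.9 in each standard SATB1 list. The site in an intron of Hhat, which encodes the acyltransferase that modifies Hedgehog proteins, had 37.9 and 36.5 for SATB1 and 40.3 for CTCF. Its standard values were 32.5 and 53.3.

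The site in an intron of Atp13a4 had 34.2 in both SATB1 replicates and 36.8 in CTCF. Between genes on chromosome 3, at chr3:24962017-24962456, the values were 34.7 and 32.3 for SATB1 and 40.8 for CTCF. This site and those in Cdrt4 and Hhat were the 3 with the highest CTCF fold enrichment. Unlike the others described, it was in both brain SATB1 lists, at 10.6 and 12.2, and in no standard list.

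An intron of Pcdh15, which encodes a cadherin of sensory hair cells, held a site with 32.7 and 33.5 for SATB1 and 35.0 for CTCF, and 48.7 in standard replicate 2 alone. At chr4:69640957-69641395 the values were 34.2, 31.4 and 39.4. At chr1:15984477-15984915 they were 32.0, 32.3 and 29.3. In each of the 7 sites described, the replicates differed by less than 3 units of fold enrichment, and 6 of the 7 had a peak in standard replicate 2.

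Across the 739 sites, the fold enrichments of the SATB1 replicates had a Spearman correlation of 0.90, and their mean and the CTCF fold enrichment one of 0.82. The points are sites of the same 3 libraries, so that local background and sequence are shared between them. For the 238 SATB1 and CTCF peaks on BURs, the second correlation was 0.73. The summits of SATB1 replicate 1 and CTCF were a median of 7 bp apart, and 601 of 739 (81.3%) were within 50 bp. Those of the SATB1 replicates were also a median of 7 bp apart. In the plot of fold enrichments, 594 of 739 sites lie above the diagonal for CTCF against SATB1.

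**Figure D1:**
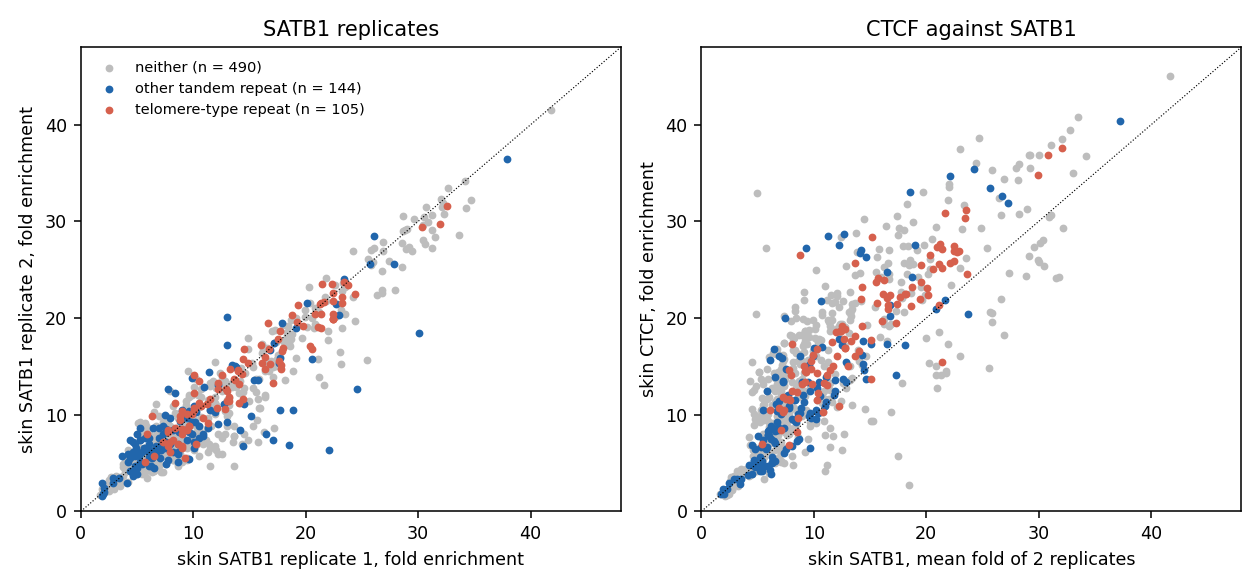
Fold enrichment at each of the 739 shared sites, in SATB1 replicate 2 against replicate 1 (left) and in CTCF against the mean of the SATB1 replicates (right), as ratios to local background. Points are sites, coloured by tandem repeat within 100 bp of the summit, and the dotted line marks equal values. The SATB1 values reach 41.8 in replicate 1 and the CTCF values 45.0.

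At the limit of the rule, the site with the least overlap shared 5 bases with a CTCF peak, at chr4:120365611-120366037, with a SATB1 fold enrichment of 17.4. The nearest peak outside, at chr17:34238890-34239380, ended 7 bases from a CTCF peak and had 13.6. The median overlap was 399 bases, and the nearest BUR was a median of 4.87 kb away. It was within 1 kb at 121 sites and 5 bases away at the closest.

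The lists of other cells and protocols were not part of the rule. In these, shared sites were frequent in the standard SATB1 lists of thymocytes and infrequent in the urea lists. The paper reports that standard ChIP-seq also gave some peaks in Satb1-/- thymocytes, although most of its standard peaks required SATB1. All Satb1-/- samples were from thymus and none from skin, so dependence of the skin peaks on SATB1 could not be tested. The Satb1-/- thymocyte samples were not analysed here. Standard replicate 1 had a peak at 393 sites (53.2%, against 6.47% of all skin SATB1 peaks and 34.8% of all skin CTCF peaks). Standard replicate 2 had one at 498 (67.4%, against 8.11% and 18.2%). The mean was 60.3% ± 10.0 (SD, n = 2 lists). At least 1 standard list had a peak at 580 sites and both at 311, counts that were not made for all skin SATB1 or CTCF peaks.

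Thymocyte urea SATB1 replicate 1 had a peak at 63 sites (8.53%, against 84.6% of all skin SATB1 peaks and 1.14% of all skin CTCF peaks) and replicate 2 at 56 (7.58%, against 84.8% and 1.07%), a mean of 8.05% ± 0.67 (SD, n = 2 lists). Each brain urea SATB1 list had a peak at 53 sites (7.17%). The background there was 83.7% and 82.7% of all skin SATB1 peaks, and 2.17% and 1.95% of all skin CTCF peaks. Skin SATB1 peaks with neither a BUR nor a CTCF peak, of which there were 897, were also off the BUR map. They were in the thymocyte urea lists at 89.6% ± 1.5 and in the standard lists at 0.50% ± 0.55 (SD, n = 2 lists each). Peaks on BURs had 94.5% ± 0.66 and 3.16% ± 0.020. Both groups were more often in the urea than in the standard lists, the reverse of the shared sites. The smallest p an exact permutation of 2 lists against 2 lists can give is 0.333, two-sided, so no test was made.

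Thymocyte urea CTCF, made with the same antibody as skin CTCF, had a peak at 75 shared sites (10.1%, 95% exact binomial interval 8.07 to 12.6, against 1.68% of all skin SATB1 peaks and 53.7% of all skin CTCF peaks). Of the 28883 skin CTCF peaks with neither SATB1 nor a BUR, 55.9% were in this list. This interval, and those given further on for the core and the start sites, cover counting error over sites of 1 list only. They treat sites as independent, although many hold copies of the same repeat. In all, 492 sites were in a standard list and in no urea list outside skin, 108 were in some urea list outside skin, and 139 were in none of the 7 lists. The same joint counts were not made for all skin SATB1 or CTCF peaks, so they describe the shared sites without a background. The plot of shares by list shows the shared sites high in the standard lists and low in the others.

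**Figure D2:**
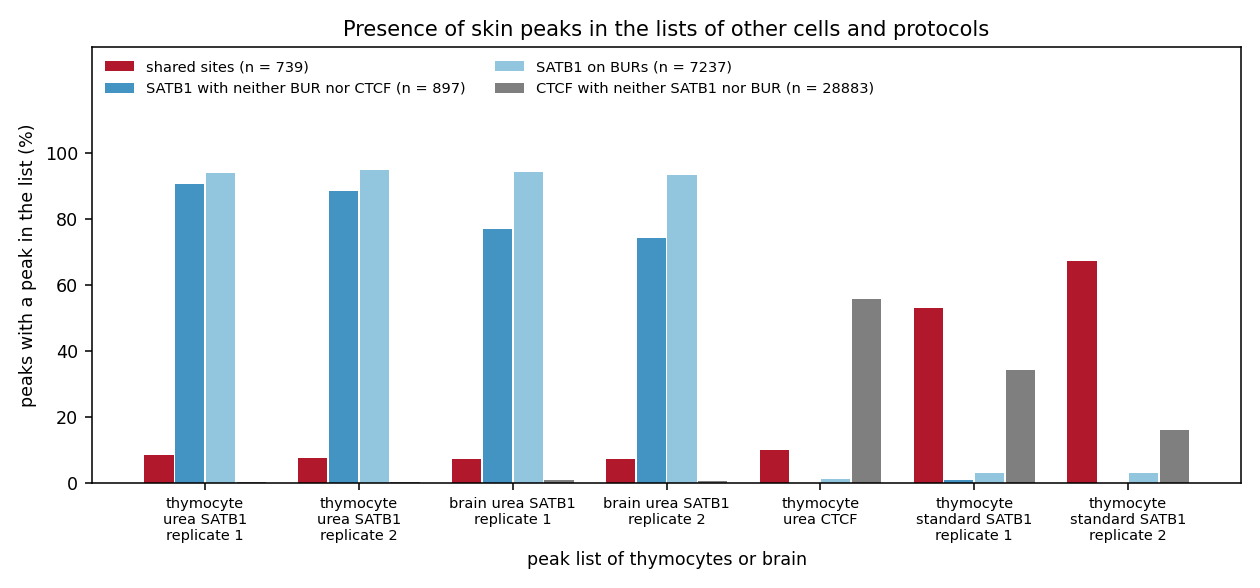
Percentage of skin peaks with a peak in each of 7 lists of thymocytes or brain, for the 739 shared sites and 3 other groups of skin peaks. Bars are single lists with no error, and the shared sites reach 53.2% and 67.4% in the standard lists and at most 10.1% in the urea lists.

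Where shared sites were in a standard list, their median fold enrichment was above that of the list, more so in replicate 2. Of the 497 peaks of standard replicate 2 at shared sites, 74.0% were in the top 10% of that list, with a median fold enrichment of 20.2 against 6.12 for the list. In standard replicate 1 the share was 43.5% of 391 peaks, with a median of 10.8 against 6.35. In the thymocyte urea SATB1 lists, 2 of 62 and 2 of 55 peaks were in the top 10%. The same ranks were not taken for other skin peaks found in these lists. Across the sites in a standard list, the skin SATB1 and standard fold enrichments had Spearman correlations of 0.52 (393 sites) and 0.51 (498 sites).

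The CTCF core, written CCNNNAGNNGGC and searched on both strands in 300 bp around the summit, was in 24 of the 739 shared sites (3.25%, 95% exact binomial interval 2.09 to 4.79). It was in 1.57% of all skin SATB1 peaks and in 43.4% of all skin CTCF peaks. Among CTCF peaks with neither SATB1 nor a BUR the share was 45.2%, and in windows of the same length on all annotated start sites 9.02%. By this measure, shared sites were unlike the rest of the skin CTCF list, and they are named here by their rule and not as CTCF sites. With A as the third base the shares were 1.49% and 35.4%, in the shared sites and the CTCF peaks with neither.

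The 24 sites with the core had a median CTCF fold enrichment of 12.2 and the 715 without it 13.9. The thymocyte CTCF list held 4 of the 24 and 71 of the 715. A match is a run of letters and not a measured site of binding. TGANTCA, bound by AP-1 factors of the epidermis, was in 6.5% of shared sites and 7.48% of all skin SATB1 peaks. CATGNNNNNNCATG, a pair of half-sites of the epidermal regulator p63, was in 0.947% and 0.838%. The GC box GGGCGG was in 8.25% of shared sites, 1.37% of all skin SATB1 peaks and 11.5% of all skin CTCF peaks.

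The median AT content of shared sites was 51.9% (quartiles 47.7% and 57.8%), near that of CTCF peaks with neither SATB1 nor a BUR (52.0%). It was 61.4% in SATB1 peaks with neither and 67.7% in SATB1 peaks on BURs. An AT content of at least 65% was found in 36 shared sites (4.87%, against 58% of all skin SATB1 peaks and 3.69% of all skin CTCF peaks). The longest stretch free of G or of C had a median of 31 bp in shared sites and also in SATB1 peaks with neither. It was 39 bp in peaks on BURs and 25 bp in the CTCF peaks with neither. The upper quartiles were 52, 39, 48 and 32 bp in the same order. Because the rule left out BURs, which are AT-rich, part of the distance to peaks on BURs follows from the rule.

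**Figure D3:**
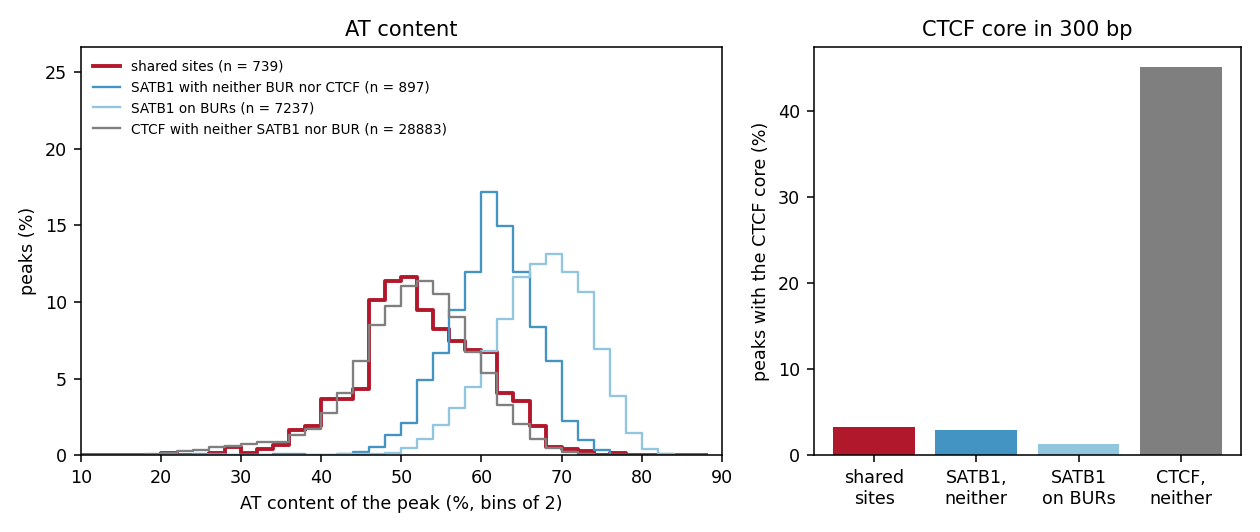
AT content of whole peaks (left, percentage of peaks in bins of 2%) and percentage of peaks with the CTCF core in 300 bp around the summit (right) for 4 groups of skin peaks. The shared sites lie with the CTCF peaks in AT content, with medians of 51.9% and 52.0%, and with the SATB1 peaks in the core, at 3.25% against 45.2% in the CTCF peaks.

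What many shared sites had in common was a tandem repeat within 100 bp of the summit. This feature was searched for after the sequences had been seen, so the shares are a description. At least 4 uninterrupted copies of TTAGGG, the repeat of mouse telomeres, on either strand, were at 105 sites (14.2%, against 1.18% of all skin SATB1 peaks and 0.503% of all skin CTCF peaks). None of the 897 SATB1 peaks with neither a BUR nor CTCF held it. Another tandem repeat was at 144 sites, so that 249 (33.7%) held a tandem repeat of either kind, against 6.67% and 3.91% of all peaks of the skin lists. In the other 144, units of 5 bases were the most frequent, at 43 sites, of which 18 were ACAGC and 9 GGAAT in some phase. A run of at least 8 C or G was at 55 sites (7.44%, against 1.21% and 1.9%). Only 12 of these 55 were among the 249, so that sites with no tandem repeat called, such as that in Cdrt4, can still hold such runs.

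Nearly all telomere-type sites were in the standard SATB1 lists, at 104 of 105 in each. The urea lists of thymocyte SATB1 held 0 and 0, those of brain 1 and 1, and thymocyte CTCF 1. The other tandem repeats were in the standard lists at 93 and 83 of 144, and in the brain lists at 14 and 15. All 9 GGAAT sites were in both brain lists and in standard replicate 2, and 7 in standard replicate 1. The 18 ACAGC sites were in no urea list outside skin, and 15 and 7 of them were in the standard lists. Of the 490 sites with neither kind of repeat, 196 (40%) and 311 (63.5%) were in the standard lists and 59 (12.0%) in thymocyte CTCF.

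In fold enrichment, the telomere-type sites had a median of 13.7 for SATB1 (mean of replicates) and 18.6 for CTCF. The other tandem repeats had 8.06 and 10.7, and the sites where no tandem repeat was called 8.90 and 13.7. The GGAAT site at chr6:10136197-10136639 differed more between replicates than the leading sites, with 30.1 and 18.5 (SD 8.21, n = 2) for SATB1 and 35.4 for CTCF. In the brain lists it had 14.6 and 12.3, and in the standard lists 19.2 and 47.3.

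The same repeat was then followed across the genome, whatever list it was in. The chromosomes 1 to 19 and X hold 252 loci with at least 4 copies of TTAGGG, counted as 1 locus when under 200 bp apart. Skin SATB1 had a peak at 131 and 129 of them, skin CTCF at 161, and the standard SATB1 lists at 151 and 147. The BUR map had a peak at 19, thymocyte urea SATB1 at 0 in both lists, thymocyte urea CTCF at 1 and brain urea SATB1 at 1 in each. Of 109 loci with at least 60 bp of repeat, the skin SATB1 lists each held 97 (89.0%), skin CTCF 102 and both standard lists 92.7%, and thymocyte urea SATB1 and CTCF held none. In short, these loci had peaks in the SATB1 and CTCF lists of skin and in both standard SATB1 lists. They were nearly absent from the SATB1 and CTCF lists of urea-purified thymocytes. Tissue, protocol and sonication differ between these lists, and what sets the presence of the loci was not tested. The lists differed in size, with 11210 and 10846 peaks in skin SATB1 and 117963 and 109154 in brain SATB1, and the part of size and depth was not tested.

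**Figure D4:**
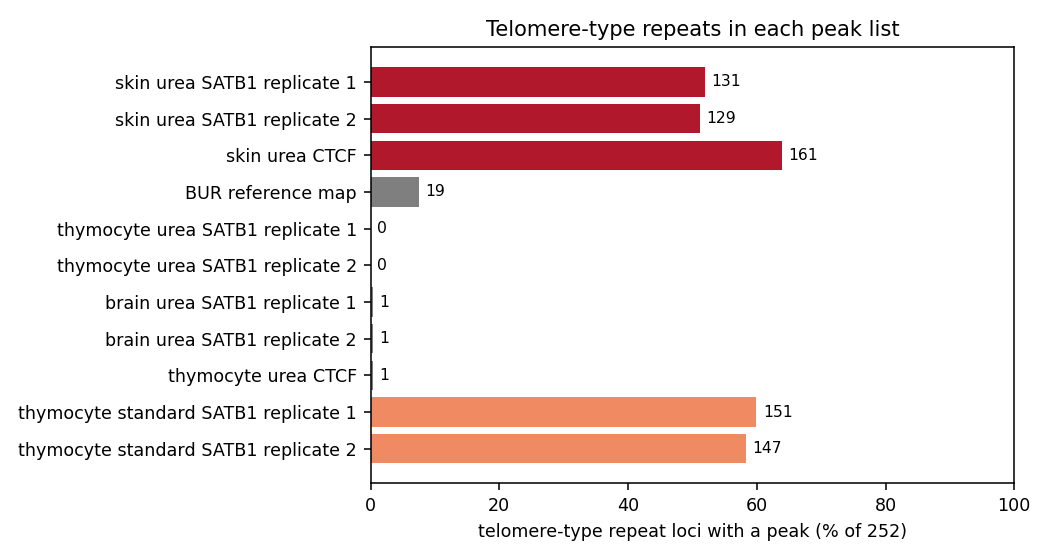
Telomere-type repeat loci of chromosomes 1 to 19 and X with a peak in each of the 11 lists, as a percentage of 252, with the number of loci beside each bar. The skin lists (red) and the standard SATB1 lists (orange) hold 129 to 161 loci, and the other lists (grey) hold 0 to 19.

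Uniqueness of the sequence was measured as the median number of copies in the assembly of the 24-base words in 50 bp around the summit. It was above 1 at 331 sites (44.8%, against 14.6% of all skin SATB1 peaks and 7.36% of all skin CTCF peaks). It had a median of 1755 copies at the telomere-type sites and 1 at the sites where no tandem repeat was called. The authors kept reads with a unique match, and what that filter did at repeats was not tested.

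Shared sites had 2 frequent peak lengths. Of 739, 197 (26.7%) were under 260 bp, against 18.2% of all skin SATB1 peaks and 20.9% of all skin CTCF peaks. A length of 430 to 450 bp was found in 223 (30.2%, against 5.93% and 4.79%), and the lowest length was 230 bp. SATB1 peaks on BURs spread more evenly around a median of 410 bp, with 4.91% between 430 and 450 bp. The 223 sites of that length had a median SATB1 fold enrichment of 14.5 and CTCF of 20.6, and those under 260 bp 7.25 and 10.7. Runs of C or G went with the short class, with a median of 234 bp, and telomere-type sites with a median of 416 bp. The lengths were examined after the lists had been seen, and what sets them was not tested.

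**Figure D5:**
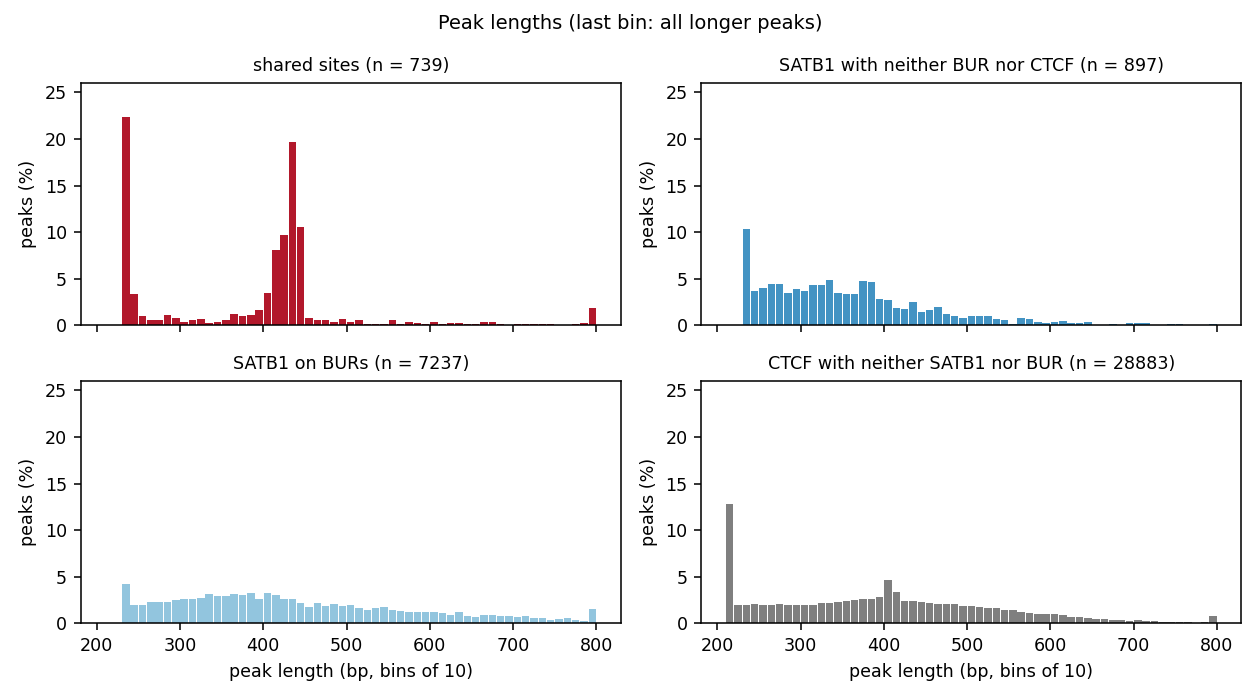
Peak lengths in bins of 10 bp, as a percentage of the peaks of each group, for the shared sites and 3 other groups of skin peaks (lengths of SATB1 replicate 1 or of CTCF). The shared sites have 2 modes, with 22.3% of peaks in the bin from 230 bp and a second mode in the bins from 410 to 440 bp. The short mode is also in the SATB1 peaks with neither (10.4% from 230 bp) and the CTCF peaks with neither (12.8% from 210 bp). The CTCF peaks with neither also have a smaller rise in the bin from 400 bp (4.63%). The peaks on BURs spread over a wide range.

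Few shared sites lay at start sites. The median distance from the summit to the nearest annotated start site was 21.7 kb (quartiles 6.37 and 72.0 kb), against 38.3 kb for SATB1 peaks on BURs, 28.3 kb for SATB1 peaks with neither and 10.5 kb for CTCF peaks with neither. Within 1 kb of a start site were 62 sites (8.39%, 95% exact binomial interval 6.49 to 10.6, against 3.16% of all skin SATB1 peaks and 13.7% of all skin CTCF peaks). Over 50 kb away were 234 (31.7%). The farthest was chr6:109819631-109820068, 775.7 kb from the nearest start site, that of Grm7, a glutamate receptor gene, with SATB1 values of 13.8 and 12.9 and CTCF of 20.9, and it was in no other list. The next, 747.0 kb away in an intron of Dcc, a netrin receptor gene on chromosome 18, had 8.59 and 6.96 for SATB1 and 10.8 for CTCF, and was in standard replicate 2.

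Of the 62 sites within 1 kb, 30 had a protein-coding gene as the nearest, and 32 a gene of another kind, among them 7 misc_RNA, 7 snoRNA, 6 pseudogenes, 5 miRNA and 2 rRNA. By placement of the summit, 414 sites were between genes, 278 in introns and 47 in exons (6.36%, against 1.88% of all skin SATB1 peaks and 9.33% of all skin CTCF peaks). Exon sites, named here after their values were seen, included an exon of Gstm7, a glutathione transferase gene, at chr3:107731611-107732045 with 31.5 and 28.4 for SATB1 and 36.9 for CTCF and no peak in any other list. Both Eef2 sites, in the gene of a translation elongation factor, had 7.05 and 7.34 and then 5.84 and 6.15 for SATB1. An exon of Acvr2a, an activin receptor gene, had 10.1 and 12.9 for SATB1 and 6.69 for CTCF, and was in standard replicate 2 alone.

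Gene lists gave few members. No start site of 20 keratinocyte identity genes, 23 epidermal regulators, 22 genes of chromatin architecture or 20 thymocyte identity genes had a shared site within 1 kb, and 1 of 60 ribosomal protein genes did, Rps29, against 59 of all 33867 gene symbols (0.174%). The site at Rps29, chr12:70260328-70260767, had 31.3 and 27.2 for SATB1 and 35.6 for CTCF. Its summit was in an exon of AC099934.1, annotated as misc_RNA, whose start was 0.272 kb away, so that the neighbourhood of Rps29 cannot be told apart from that gene. It was also in thymocyte CTCF at 13.5 and in the standard lists at 18.7 and 45.8. Within gene bodies, 1 of the 143 genes of the 5 lists held shared sites (0.699%, against 0.906% of all gene symbols). This was Fgfr2, a fibroblast growth factor receptor of the epidermis. The site at chr7:137323943-137324379 in its intron had a mean SATB1 fold enrichment of 21.7 and 14.4 for CTCF, and it was in standard replicate 2 at 24.2. At a share of 0.174% of genes with a shared site at the start, a count of 0 in a list of 20 genes does not set that list apart.

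The 75 sites in the thymocyte CTCF list differed from the other 664 in several measures that the rule did not use. They were in the thymocyte urea SATB1 lists at 64% and 60%, against 2.26% and 1.66%, and in the standard lists at 88% and 76%, against 49.2% and 66.4%. Of the 75, 16 held a tandem repeat (21.3%, against 35.1%) and 4 the CTCF core. Their median AT content was 48.2% against 52.1%, and 11 were within 1 kb of a start site (14.7%, against 7.68%). A site with the core at Ankrd46, named after its values were seen, chr15:36426544-36426908, 0.166 kb from its start site, had 9.09 and 8.60 for skin SATB1 and 11.8 for skin CTCF. It had 6.61 and 7.54 for thymocyte urea SATB1 and 18.8 for thymocyte CTCF. Another site with the core, in an exon of Sec14l2, had 24.2 and 27.0 for skin SATB1 and 4.32 for thymocyte CTCF. Neither it nor a core site in an exon of 3110070M22Rik had a thymocyte urea SATB1 peak. These values come from sets of overlapping lists, so that sites in one outside list were often in others.

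In all 7 outside lists were 16 sites, a count without a background share of all skin peaks. The 49 sites in both thymocyte urea SATB1 lists had a median skin SATB1 fold enrichment of 7.80 and a skin CTCF of 6.69, against 9.31 and 14.3 for the 669 in neither. Of the 49, 39 (79.6%) were also in thymocyte CTCF, against 21 (3.14%) of the 669. All skin SATB1 peaks were in that list at 1.68% and all skin CTCF peaks at 53.7%. The 139 sites in no outside list had a median AT content of 53.0%, and 22 held a tandem repeat (15.8%). Their median distance to a start site was 23.8 kb. Shared sites were found on every chromosome of the rule, from 1.62 per 10 Mb on X to 4.03 per 10 Mb on chromosome 9.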

How the data were processed

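The authors mapped reads to NCBI37/mm9 with Bowtie2 2.3.1, keeping unique matches, and then ran MACS2 2.2.7 on every library to obtain peaks. From the deposited lists, the fold enrichment (a ratio at the summit to local background) and the −log10 q-value were used as the authors' peak caller gave them; the −log10 p-value and the display score of the authors' caller were not. The lists hold no counts, so that depth was not measured here and fold enrichments are not scaled between samples. For urea ChIP-seq, the paper reports that aligned read totals were similar between skin, thymocytes and brain. Inputs and Satb1-/- samples, all of them from thymus, and a second thymocyte CTCF sample were not analysed here.

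Overlap was at least 1 bp. Sequence was read from NCBIM37, the assembly of mm9, and start sites and exons from GENCODE vM1, with Python 3.11.15, numpy 2.4.6, scipy 1.17.1, numba 0.67.0, pysam 0.24.0 and matplotlib 3.10.9. A tandem repeat was a stretch of 40 bp that matched itself shifted by 1 to 60 bp at 90% or more. Overlap and repeat finding were checked on simulated data. Groups and replicates came from the sample labels. Named sites were the 8 with the highest mean SATB1, of which 1 is not reported here, and the 3 with the highest CTCF fold enrichment, the 2 farthest from a start site, and sites at listed genes. The members, the gene lists and the rules were chosen with earlier results of these data known. No test was made over sites, which are not replicates. Alternatives were stricter overlap and q, a wider exclusion of BURs, each replicate left out, other start sites and distances, and other motif windows.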

Additional observations from a re-analysis of the deposited data

How the results depend on the processing

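The number of shared sites was 739, between 862 and 986 without a skin SATB1 replicate, and 490 without the sites that hold a tandem repeat, an alternative chosen after the data were seen. With that removal, 11.2% were within 1 kb of a start site, the median distance was 17.4 kb, and the thymocyte urea and brain urea shares were 10.9% and 7.65%. The mean standard SATB1 share was then 51.7%, against 60.3% with all sites, at 40% and 63.5% in replicates 1 and 2. This change lay within the SD of 10.0 between the standard lists, which differ in antibody and sonication. With protein-coding genes only, 4.33% were within 1 kb, at a median of 36.8 kb. With all genes, 22.1% were within 5 kb. With the stricter motif the CTCF core was in 1.49%. With the summit inside the outside peak, the thymocyte urea share was 7.31% and the brain share 6.02%. Both brain lists held 53 sites, so that any change exceeded their spread of 0: the brain share was 6.72% by summit, 6.84% with 50% of the peak covered, 7.05% at a −log10 q of at least 5, 6.72% with no BUR within 1 kb, and 7.17% on the peaks of replicate 2.

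With a replicate left out, the range was 6.49% to 8.53% for the thymocyte urea lists, 6.79% to 7.17% for brain, 53.2% to 67.4% for the standard lists, 8.32% to 9.40% for thymocyte CTCF, 8.42% to 8.58% within 1 kb, 20.6 to 21.7 kb for the distance, 51.9% to 52.2% for AT content and 3.45% to 3.83% for the core. In 64 comparisons of a share or median with an alternative the value stayed within the spread between lists or the 95% interval. In 18 others it moved beyond it. Among these were the thymocyte urea share without skin SATB1 replicate 2 (6.49%) and the brain share without skin replicate 2 or 1 (6.90% and 6.79%). The number of sites stayed within 1.5 times 739 in 7 of 8. No paired analysis was possible because the results come from no test between groups. For CTCF in each tissue and for the BUR map 1 list was analysed here, and depth was not measured.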

Other observations

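The pentamer repeat GGAAT, in at least 4 copies, was at 40 loci of chromosomes 1 to 19 and X, counted in the same way as the telomere-type loci and chosen after the values were seen. Skin SATB1 had a peak at 26 and 14 of them, skin CTCF at 34, the standard SATB1 lists at 10 and 34, and the brain urea SATB1 lists at 21 and 24. The thymocyte urea lists had a peak at 2 and 1 for SATB1 and at 3 for CTCF, and the BUR map at 4. The presence of this repeat therefore followed another order of lists than TTAGGG, with brain holding 52.5% and 60% of these loci and 0.397% of the TTAGGG loci.

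Some peaks ran past the end of a chromosome of the assembly. There were 4 in each skin SATB1 list, 5 in skin CTCF, 5 in each standard SATB1 list and 5 in the BUR map, and 0 in each of the 5 urea lists of thymocytes and brain. The lists with such peaks hold 10846 to 238380 peaks, and what sets these few was not tested.

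Of the 16 sites in all 7 outside lists, 3 lay together on chromosome 17 beside AY036118, with mean skin SATB1 fold enrichments of 2.65, 2.19 and 2.07.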
